A study of Mus musculus with 54 samples.

Results

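A set of 10 genes that are switched on by, or restrain, the ERK branch of MAP kinase signalling were followed in H2K myogenic progenitors of mouse: the MAP kinase phosphatases Dusp1, Dusp4, Dusp5 and Dusp6, the Sprouty proteins Spry2 and Spry4, the ETS transcription factors Etv4 and Etv5, and the early-response transcription factors Egr1 and Fosl1. They were chosen by name, and their NCBI gene numbers were matched in all 27 tables. All 10 of 10 were listed in every table and passed the filter on low values, as 13391 of 19653 listed genes did.

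H2K cells are conditionally immortalised muscle progenitors that grow with γ-interferon. The study had 6 lines: wildtype, EMD-/y (emerin-null), and 4 lines made by transducing EMD-/y progenitors with lentivirus and selecting with puromycin: +EMD, which carries wildtype emerin, and S54F, Δ95–99 (Del9599 in the labels) and Q133H, which each carry a form of emerin that causes Emery-Dreifuss muscular dystrophy. Every line other than wildtype thus shares the deletion of the mouse gene. Each line was sampled at 0, 24 and 48 h of differentiation (day 0, day 1 and day 2), which makes 18 groups, each with 3 samples labelled as replicates, and 54 samples altogether. The methods give technical replicates within 2 biological replicates, and the labels do not say which is which.

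Several features of the design cannot be told apart from line or day. Day 0 followed growth in medium with 20% fetal serum, chick embryo extract and γ-interferon, whereas day 1 and day 2 were spent in 5% horse serum without them, so day and medium changed together. The cells were also moved to a lower CO2 level and, by the methods though not by the labels, to a higher temperature. For differentiation, 232000 cells per well were plated of wildtype and EMD-/y but 297000 of the emerin mutant lines, and the density of +EMD was not given. By the labels, puromycin stayed in the media of the disease-mutant lines through growth and differentiation, and the dose used for selection differed between the transduced lines. The vector-only line was not analysed here, so transduction and selection cannot be told apart from the emerin form. In bulk RNA, fewer cells of a type and less RNA per cell cannot be told apart.

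ERK is the last kinase of a chain that runs from receptor tyrosine kinases through Ras, Raf and MEK. Active ERK switches on its own inhibitors: the Dusp proteins remove the activating phosphates from MAP kinases, and Sprouty proteins act upstream, between receptor and Raf. Etv4, Etv5, Egr1 and Fosl1 are transcription factors whose mRNAs follow ERK activity on different time scales. In myoblasts, growth factors hold ERK active during proliferation, and serum withdrawal is the usual way to start differentiation.

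RefSeq promoter windows (build GRCm38.p6) were matched for 5 of the 10 genes, Dusp1, Dusp5, Dusp6, Spry2 and Etv5, the last with a pair of start sites. The 250 bases before the start were searched on both strands for the AP-1 motif TGANTCA, the cAMP response element (CRE) TGACGTCA, the ETS core CCGGAA and the serum response element core, or CArG box, by its name. Of 32851 windows of this length over all genes, 6.75% held the AP-1 motif, 1.55% the CRE, 12.03% the ETS core and 1.47% a CArG box. The sequences below are shown because Dusp5, Dusp6 and Etv5 moved together across the groups while Dusp1 took another course; capitals mark a motif.
Dusp5, chr19:53528895-53529144, plus strand: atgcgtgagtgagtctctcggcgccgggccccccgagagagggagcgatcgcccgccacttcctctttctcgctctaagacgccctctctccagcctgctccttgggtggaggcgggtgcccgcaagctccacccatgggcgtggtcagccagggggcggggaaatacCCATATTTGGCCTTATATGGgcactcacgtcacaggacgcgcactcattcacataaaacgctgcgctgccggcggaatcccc
Dusp6, chr10:99262981-99263230, plus strand: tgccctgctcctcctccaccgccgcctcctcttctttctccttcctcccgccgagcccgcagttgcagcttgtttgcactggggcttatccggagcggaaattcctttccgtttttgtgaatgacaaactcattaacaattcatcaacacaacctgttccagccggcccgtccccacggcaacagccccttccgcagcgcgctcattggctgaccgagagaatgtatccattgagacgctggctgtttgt
Etv5, chr16:22439571-22439820, minus strand: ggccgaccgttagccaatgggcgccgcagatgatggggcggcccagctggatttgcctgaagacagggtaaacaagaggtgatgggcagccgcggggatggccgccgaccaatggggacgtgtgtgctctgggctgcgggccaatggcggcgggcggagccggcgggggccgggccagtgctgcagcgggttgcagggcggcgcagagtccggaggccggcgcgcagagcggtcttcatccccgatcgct
Dusp1, chr17:26508473-26508722, minus strand: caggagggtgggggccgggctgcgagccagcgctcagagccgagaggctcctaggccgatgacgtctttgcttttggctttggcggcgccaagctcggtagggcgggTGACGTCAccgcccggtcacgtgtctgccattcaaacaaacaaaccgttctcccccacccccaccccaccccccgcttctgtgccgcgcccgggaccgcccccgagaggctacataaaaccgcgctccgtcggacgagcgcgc
The Dusp5 window held 2 adjoining CArG boxes, the first beginning 82 bases before the start. The Dusp1 window held 1 CRE, 143 bases before the start. The windows of Dusp6, Spry2 and Etv5 held none of the 4 motifs, which says only that these letters were not in these windows.

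Each table held 1 value for each of a pair of groups, in normalised counts, and no value for a single library. No SD or replicate n can therefore be given for any level, and no test was run. A level below is the median of a group's values over the tables that hold it, 2 to 7 tables a group. For the 10 genes the values of 1 group differed between tables by at most 19.4%, a spread between values made from the same libraries and not one between replicates. A ratio was taken within 1 table, as log2 of the group values with 1 added to each, so ratios of levels taken across tables can differ from it. The ± after a log2 ratio is the standard error from read counting alone and leaves out the spread between cultures. For the 10 genes it was 0.016 to 0.237, and at most 0.268 for a difference between the changes of a line and wildtype. A gene was called where a ratio reached 2-fold. The group values appear to carry a fold that was shrunken toward none, in which case ratios are understated by an amount that was not measured.

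Genotype and tissue were checked in the 18 groups. Emd, the targeted gene, had levels of 1054 to 1930 in wildtype and of 0.33 to 2.35 in the 5 other lines, +EMD included, so it checks the deletion and not the emerin that the virus carried. The myogenic markers Myod1 and Des were at least 6545 and 10061 in every group. Pax7, a marker of satellite cells, ran from 3.31 to 2186. It was below 10 in Q133H on every day and in no other line. Some markers of other cell types, namely Adipoq for adipocytes, Lum for fibroblasts, Adgre1 and Ptprc for macrophages and Cdh5 for endothelium, were at most 10.2. Other genes of those lists reached 1089 for Cebpa, 113 for Cd68 and 110 for Pparg. The fibroblast markers Pdgfra, Dcn and Thy1 reached 70.7, 51.8 and 16.0. The endothelial markers Kdr and Pecam1 reached 28.0 and 13.0, and Csf1r of the macrophage list reached 25.0. The part of these genes in the results was not tested. The columns of the tables summed to between 16719491 and 21128040 normalised counts a group, and estimated size factors of the libraries ran from 0.849 to 1.15.

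**Figure D1:**
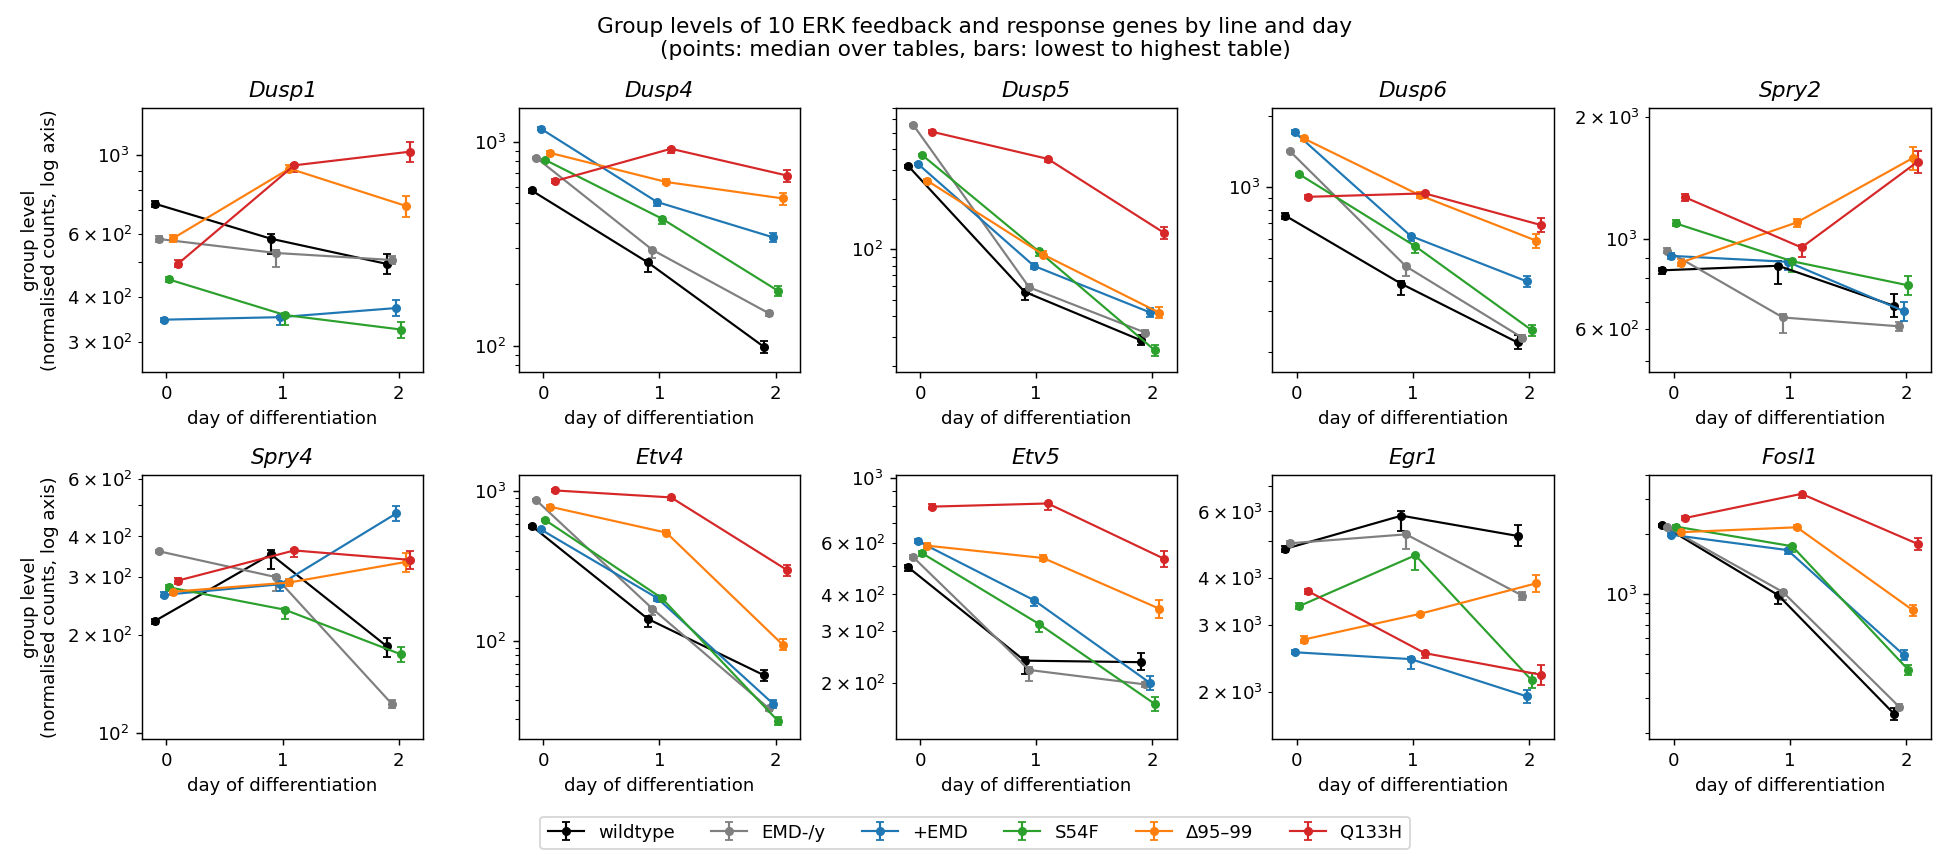
Group level of each gene (normalised counts, log axis) against day of differentiation for the 6 lines; points are medians over tables and bars run from the lowest to the highest table. Q133H and Δ95–99 stayed above the other lines at day 2 for Dusp4, Dusp6, Etv4, Etv5, Fosl1 and Spry2, while wildtype had the highest Egr1 on day 1 and day 2.

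In wildtype progenitors, 5 of the 10 genes fell by at least 2-fold from day 0 to day 1, against 9.65% of all genes, and none rose. Dusp5, a nuclear phosphatase specific to ERK, had levels of 315, 55.7 and 28.6 on days 0, 1 and 2. Etv4, a factor of the PEA3 group of ETS proteins, had levels of 586.5, 140.0 and 58.7. By day 2, Dusp5 was down to 11.1% and Etv4 to 12.2% of the starting level.

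Dusp4, a nuclear phosphatase of ERK, JNK and p38, had wildtype levels of 576, 256 and 98.7. Fosl1, the AP-1 subunit also called Fra-1, had 2226, 986 and 247.5. Etv5, the close relative of Etv4, had 494.6, 238.0 and 235.2, so that its fall was over at day 1. From day 1 to day 2, 3 wildtype genes fell, Dusp4, Etv4 and Fosl1, against 11.9% of all genes. Fosl1 fell most in that step, by 1.81 ± 0.06 on the log2 scale.

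The other 5 genes were not called in wildtype in either step. Dusp6, the cytoplasmic ERK phosphatase, came close to the 2-fold limit from day 0 to day 1, with a log2 ratio of -0.95 ± 0.05, and had levels of 755.4, 389 and 220.0. Spry4 had levels of 220.1, 352.6 and 184 and Spry2 of 837.8, 859.8 and 684.1. Egr1, the zinc-finger immediate-early factor, had 4779, 5849 and 5170. Dusp1, a phosphatase of all 3 main MAP kinase classes, had 730.8, 582.8 and 495. These 5 moved by less than 2-fold in each step, and of them Dusp6 reached 33.2% of its day 0 level at day 2.

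Over all 18 groups Dusp6 went with the 5 genes that fell. Dusp4, Dusp5, Dusp6, Etv4, Etv5 and Fosl1 had pairwise Pearson r of 0.838 to 0.958 on the log2 scale over the 18 groups. Egr1 had r of -0.282 to 0.125 with the other 9 genes, and Dusp1 had r of 0.125 to 0.490. These r are descriptions: the groups share lines, days and tables, and no p is given.

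The phosphatases Dusp4, Dusp5 and Dusp6 were highest at day 0 in most lines, and the lines then separated. Dusp4 levels at day 0 were 576 in wildtype, 833.2 in EMD-/y, 1156 in +EMD, 811.4 in S54F, 879.5 in Δ95–99 and 639.8 in Q133H. At day 1 they were 256, 294.7, 505.8, 419.6, 633.4 and 921.6 in the same order. At day 2 they were 98.7, 144.4, 339.2, 185.8, 526.5 and 681.2. Dusp4 in Q133H was not lower at day 1 or day 2 than at day 0, and at day 2 it exceeded wildtype 6.01-fold (log2 2.59 ± 0.09). Δ95–99 exceeded wildtype 4.71-fold and +EMD 3.29-fold on that day, EMD-/y and S54F by log2 0.59 and 0.88.

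Dusp5 levels at day 0 were 315, 558.3, 325.7, 366.3, 258.4 and 506.7 in that order of lines. At day 1 they were 55.7, 59.2, 79.7, 97.5, 93.1 and 348.0. At day 2 they were 28.6, 31.7, 41.9, 24.9, 41.8 and 125.7. Q133H stood apart from the 5 other lines: it exceeded wildtype 5.63-fold at day 1 (log2 2.49 ± 0.12) and 3.66-fold at day 2, while no other line was called for Dusp5 on any day. EMD-/y had the steepest fall from day 0 to day 1, to 11.5% of the starting level, from the highest day 0 level.

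Dusp6 had values above wildtype in every line and on every day. Its day 0 levels were 755.4 in wildtype, 1414 in EMD-/y, 1701 in +EMD, 1130 in S54F, 1600 in Δ95–99 and 907.1 in Q133H. At day 1 they were 389, 460.7, 619.7, 560.4, 919.8 and 937.8, and at day 2 220.0, 230.4, 398.3, 248.2, 592 and 689.5. The +EMD and Δ95–99 lines exceeded wildtype 2.23-fold and 2.03-fold at day 0. At day 2, Δ95–99 exceeded it 2.40-fold and Q133H 2.70-fold. Dusp6 overlaps the lncRNA gene Gm34921 on chromosome 10, and strand was not stated to be used in counting.

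The ETS factors took a course like that of Dusp5. Etv4 levels at day 0 were 586.5 in wildtype, 871.4 in EMD-/y, 554.8 in +EMD, 639.6 in S54F, 787.9 in Δ95–99 and 1013 in Q133H. At day 1 they were 140.0, 163.7, 193.1, 192.8, 528.3 and 909.4. At day 2 they were 58.7, 35.3, 37.8, 29.1, 94.2 and 296.6. Etv4 kept 88.7% of its day 0 level at day 1 in Q133H and 68.0% in Δ95–99, against 24.9% in wildtype and 19.7% in EMD-/y. It spanned 34.8-fold between its lowest group, S54F day 2, and its highest, Q133H day 0, the widest span of the 10 genes.

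Etv4 was higher than wildtype by 5.94-fold in Q133H (log2 2.57 ± 0.07) and 3.53-fold in Δ95–99 at day 1. By day 2 the excess was 4.18-fold in Q133H, and in Δ95–99 the log2 ratio was 0.49 ± 0.14. The 3 remaining lines had log2 ratios of -0.65, -0.67 and -0.998 at day 2, the last of them in S54F, just inside the 2-fold limit and not called. For Etv4 the lines lay on both sides of wildtype at day 2.

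Etv5 was likewise highest in Q133H and then Δ95–99 at day 1 and day 2, with a smaller spread. Its levels at day 0, in the order of lines used for Etv4, were 494.6, 536.8, 608.3, 552.3, 586.7 and 796.7. At day 1 they were 238.0, 221.2, 382.6, 318.1, 532.5 and 816.8, and at day 2 235.2, 197.5, 199.7, 169.5, 357.7 and 529.4. In Q133H it was still at 100.4% of its day 0 level at day 1, and exceeded wildtype 3.16-fold. The excess was 2.13-fold in Δ95–99 at day 1, and at day 2 Q133H had a log2 ratio of 0.97 ± 0.07.

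Fosl1 started at nearly one level in all lines, 1991 to 2420 at day 0, with log2 ratios to wildtype between -0.18 and 0.07. At day 1 its levels were 986 in wildtype, 1024 in EMD-/y, 1666 in +EMD, 1743 in S54F, 2171 in Δ95–99 and 3201 in Q133H. At day 2 they were 247.5, 270.2, 492.9, 414.1, 827.6 and 1790. The excess over wildtype was 3.01-fold in Q133H and 2.10-fold in Δ95–99 at day 1. It was 6.22-fold (log2 2.64 ± 0.05) and 2.99-fold at day 2, and EMD-/y had log2 ratios of 0.12 and 0.17 on those days. Part of Fosl1 overlaps Ccdc85b on chromosome 19, whose levels were 50.4 to 356 over all groups and tables.

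Dusp1 and Egr1 went their own ways. Dusp1 levels at day 0 were 730.8, 581.5, 345.5, 448.2, 584.8 and 495.5 from wildtype to Q133H in that order, so that wildtype was the highest line. At day 1 they were 582.8, 531.6, 351.2, 356.1, 916.5 and 935.9. At day 2 they were 495, 508, 372.5, 324.2, 720.5 and 1022, and Q133H was the highest. The only call against wildtype was in +EMD at day 0, 2.13-fold lower. In Q133H Dusp1 had a log2 ratio of 0.88 ± 0.05 from day 0 to day 1, where wildtype had -0.33 ± 0.05.

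Egr1 was the one gene of the 10 that was called lower than wildtype at day 1 or day 2. Its levels at day 1 were 5849 in wildtype, 5221 in EMD-/y, 2442 in +EMD, 4596 in S54F, 3217 in Δ95–99 and 2532 in Q133H. At day 2 they were 5170, 3595, 1945, 2148, 3874 and 2220. Egr1 was lower than wildtype in +EMD at day 1 (2.37-fold) and day 2 (2.69-fold), in Q133H on the same days (2.44-fold and 2.66-fold), and in S54F at day 2 (2.39-fold). Of its 15 log2 ratios to wildtype only that of EMD-/y at day 0 was above 0, at 0.06 ± 0.02.

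The Sprouty genes were called only at day 2 against wildtype. Spry4 had day 2 levels of 184 in wildtype, 122.7 in EMD-/y, 470.9 in +EMD, 174 in S54F, 334.1 in Δ95–99 and 339.1 in Q133H. The +EMD line exceeded wildtype 2.46-fold (log2 1.30 ± 0.07). Spry2 had day 2 levels of 684.1, 609.5, 664.6, 769.1, 1587 and 1553 in the same order of lines, and Δ95–99 exceeded wildtype 2.07-fold. Q133H had a Spry2 log2 ratio of 0.99 ± 0.04, just inside the limit. At day 1 all 10 Sprouty log2 ratios lay between -0.56 and 0.28.

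The order of the 18 groups by level has no replicate support, since ranges over tables come from the same libraries. Of the 17 neighbouring pairs in that order, these ranges overlapped in 3 for Etv4, 5 for Dusp5 and 6 for Dusp4, and in 8 each for Dusp6, Egr1 and Fosl1. They overlapped in 11 each for Dusp1, Spry2 and Etv5, and in 12 for Spry4. The highest group exceeded the lowest 22.4-fold for Dusp5, 12.9-fold for Fosl1, 11.7-fold for Dusp4 and 7.73-fold for Dusp6. For Dusp1, Spry2, Spry4, Etv5 and Egr1 the span was 2.60-fold to 4.82-fold.

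**Figure D2:**
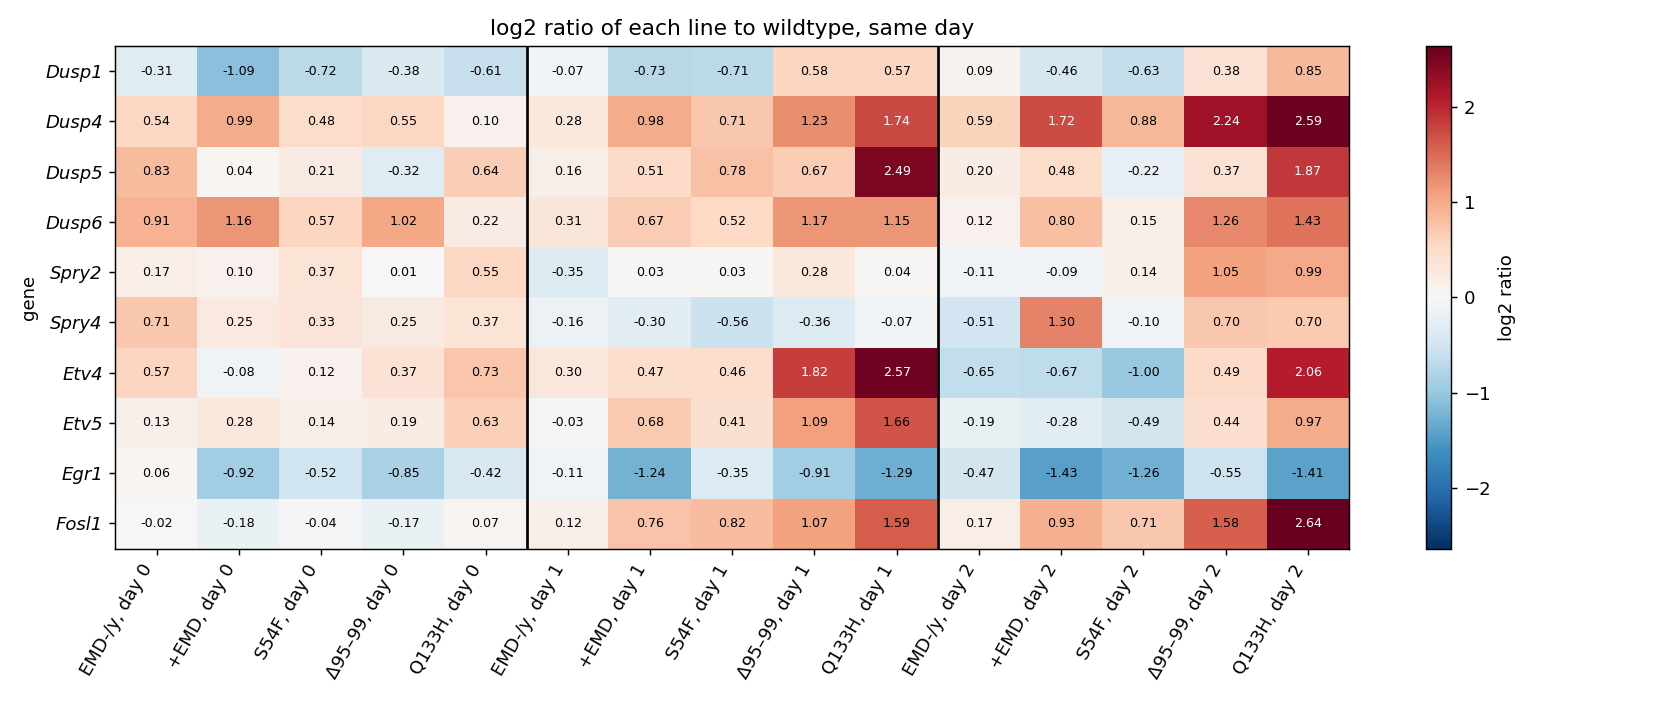
log2 ratio of each of the 5 lines to wildtype on the same day for the 10 genes; each cell prints the ratio, red is higher and blue is lower than wildtype, and vertical lines part the days. The darkest red cells are Dusp4 and Fosl1 in Q133H at day 2 and Dusp5 and Etv4 in Q133H at day 1, and Egr1 is the row of blue.

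Counted against wildtype, 30 of the 150 ratios of the 10 genes reached 2-fold, beside 15.2% over all genes. All 5 comparisons on a day share the same wildtype libraries, so they are given side by side. At day 0 few genes were called. No gene was called in EMD-/y, S54F or Q133H, where 8.05%, 10.9% and 13.7% of all genes were called in either direction. In +EMD, Dusp6 was higher and Dusp1 lower, against 5.55% and 10.5% of all genes. In Δ95–99, Dusp6 was higher, against 5.06%.

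At day 1 the calls gathered in the Q133H and Δ95–99 lines. In Q133H, 6 of the 10 genes were higher than wildtype, against 8.90% of all genes, and 1, Egr1, was lower, against 14.4%. The 6 were Dusp4, Dusp5, Dusp6, Etv4, Etv5 and Fosl1. In Δ95–99, 5 genes were higher, the same set without Dusp5, against 8.33%. In +EMD Egr1 alone was called, and lower, against 10.5%. EMD-/y and S54F had no call among the 10, beside 6.83% and 11.3% of all genes in either direction. The median log2 ratio of the 10 genes was 1.37 in Q133H and 0.87 in Δ95–99, and over all genes it was -0.01 in both.

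At day 2, Q133H had 5 genes higher, Dusp4, Dusp5, Dusp6, Etv4 and Fosl1, against 17.2% of all genes, and Egr1 lower, against 14.7%. With each group scaled to its column sum, Dusp1, Spry2 and Etv5 also passed 2-fold in Q133H, which made 8 higher, against 22.1% of all genes. In Δ95–99, Dusp4, Dusp6, Spry2 and Fosl1 were higher, against 13.0%. In +EMD, Dusp4 and Spry4 were higher, against 10.2%, and Egr1 was lower, against 7.33%. In S54F only Egr1 was called, and lower, against 4.38%. No gene was called in EMD-/y, against 7.20% in either direction. The +EMD line, which carries wildtype emerin, had 3 calls at day 2, not all in the same direction, and EMD-/y had none. With so few genes, counts this small can lie near the shares of all genes. Whether +EMD and EMD-/y differ in their calls was not tested.

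**Figure D3:**
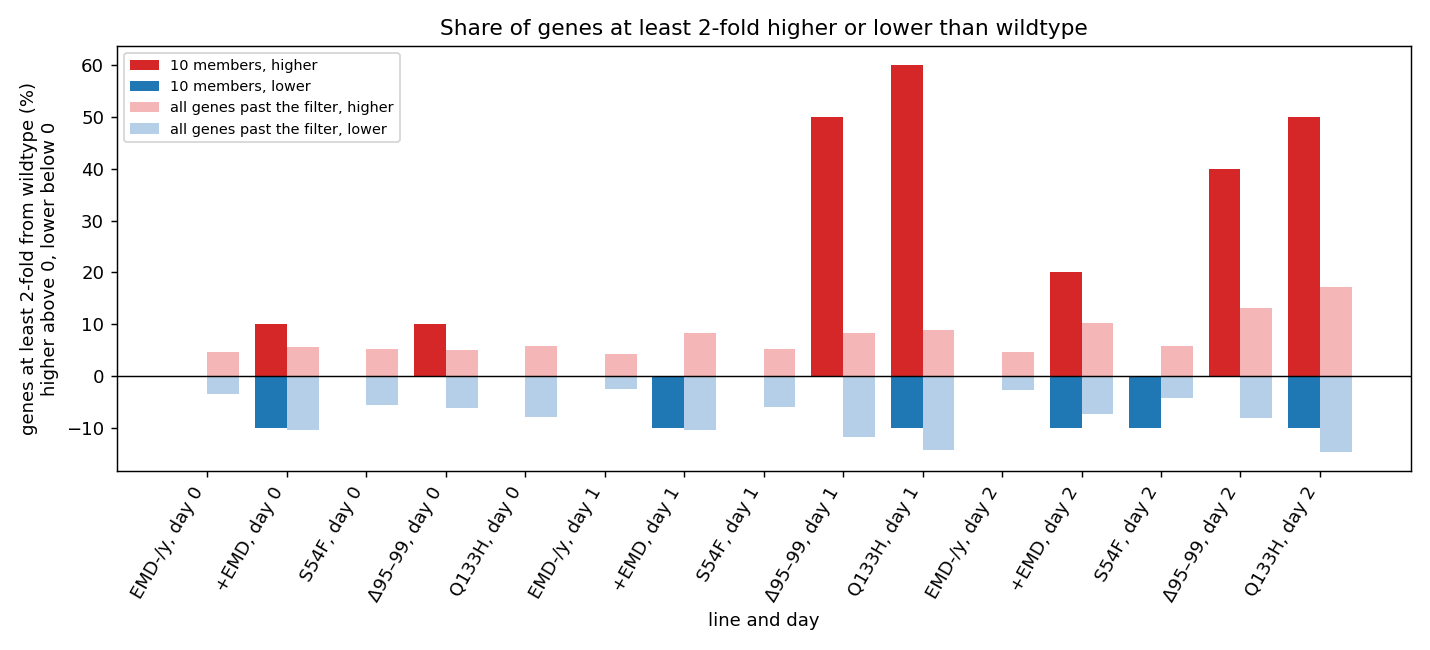
Share of genes at least 2-fold higher (above 0) or lower (below 0) than wildtype in each line and day, for the 10 genes (dark bars) and for all genes past the filter (light bars), in percent. The dark bars for higher genes reach 50% in Δ95–99 and 60% in Q133H at day 1 and 40% and 50% at day 2, and in EMD-/y they are absent on all 3 days.

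From day 0 to day 1 the fall seen in wildtype was present in some lines and not in others. EMD-/y had 6 genes that fell, against 8.68% of all genes: Dusp4, Dusp5, Dusp6, Etv4, Etv5 and Fosl1. In +EMD, 4 fell, Dusp4, Dusp5, Dusp6 and Etv4, against 6.31%. In S54F, 3 fell, Dusp5, Dusp6 and Etv4, against 6.29%. In Δ95–99 only Dusp5 fell, against 5.90%. In Q133H none was called in either direction, against 11.5%, and none of the 10 genes rose by 2-fold in any line in this step. The median log2 ratio of the 10 genes was -0.9995 in wildtype, -1.13 in EMD-/y, -0.47 in +EMD, -0.57 in S54F, -0.02 in Δ95–99 and 0.01 in Q133H.

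From day 1 to day 2 every line had at least 2 genes that fell and none that rose. In EMD-/y these were Spry4, Etv4 and Fosl1, against 10.8% of all genes. In +EMD they were Etv4 and Fosl1, against 9.27%. In S54F they were Dusp4, Dusp5, Dusp6, Etv4 and Fosl1, against 11.1%. In Δ95–99 they were Dusp5, Etv4 and Fosl1, against 5.03%, and in Q133H Dusp5 and Etv4, against 4.28%. Etv4 was called in all 6 lines in this step, with falls from 1.02 in wildtype to 2.51 in S54F on the log2 scale. In Q133H and Δ95–99, with falls of 1.49 and 2.36, this was its first fall past 2-fold, where in the other 4 lines it had already fallen in the step to day 1.

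**Figure D4:**
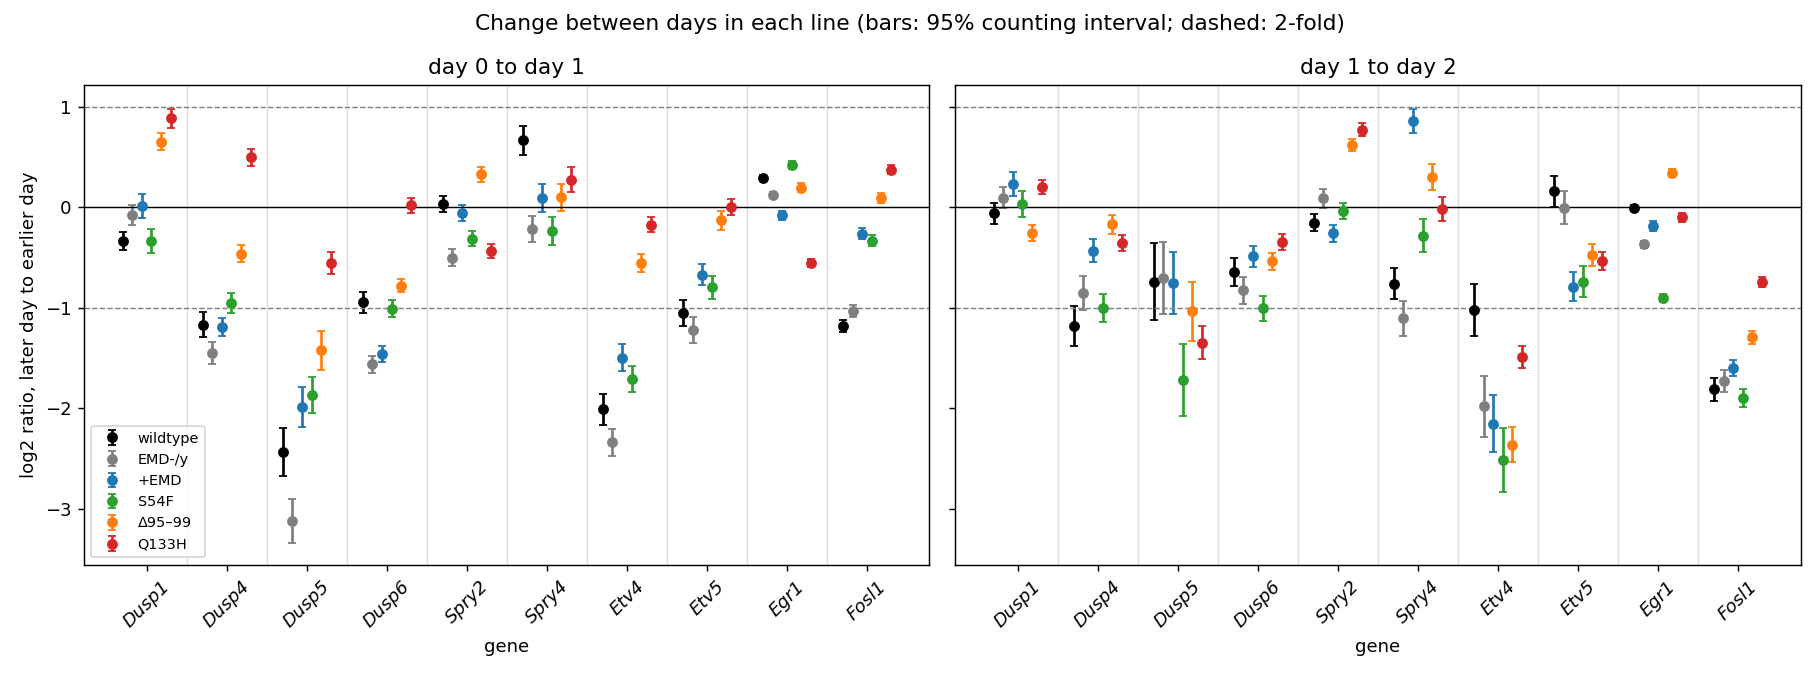
log2 ratio of the later day to the earlier day for each gene in the 6 lines, in the step to day 1 (left) and to day 2 (right); bars are 95% intervals from read counting alone and dashed lines mark 2-fold. In the left panel Dusp4, Dusp5, Dusp6, Etv4, Etv5 and Fosl1 are below 0 in wildtype and EMD-/y and nearest to or above 0 in Q133H.

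The change of each line between days was also set against that of wildtype. In the step to day 1, Q133H exceeded wildtype by at least 2-fold for 6 genes, against 8.44% of all genes. The differences in log2 ratio were 1.22 ± 0.07 for Dusp1, 1.67 ± 0.08 for Dusp4, 1.88 ± 0.13 for Dusp5, 1.84 ± 0.09 for Etv4, 1.06 ± 0.08 for Etv5 and 1.56 ± 0.04 for Fosl1. In Δ95–99, Dusp5, Etv4 and Fosl1 exceeded wildtype, by 1.01, 1.45 and 1.27, against 5.69%. None differed by 2-fold in EMD-/y, +EMD or S54F, against 3.90%, 11.5% and 9.22% in either direction. The 10 differences of EMD-/y, which lacks emerin, lay between -0.89 and 0.26, and those of Q133H between -0.85 and 1.88.

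In the step to day 2 the differences from wildtype were fewer. Fosl1 fell less in Q133H, by a difference of 1.07 ± 0.06, against 12.3% of all genes. In Δ95–99 Dusp4 and Spry4 were above wildtype by 1.01 and 1.06, against 11.1%, and Etv4 below by -1.34, against 2.82%. In +EMD Spry4 was above by 1.62, against 8.53%, and Etv4 below by -1.13, against 3.14%. In S54F Etv4 was below by -1.49, against 2.51%, and in EMD-/y none was called, against 3.0% in either direction. The same differences taken from the tables against wildtype departed from these by at most 0.0557 for the 10 genes, in 100 comparisons.

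Markers of proliferation and of muscle also differed between the lines, and their part in the results was not tested. The summed level of 5 proliferation genes (Mki67, Top2a, Ccnb1, Cdk1, Ccna2) at day 1 was 17529 in wildtype, 16882 in EMD-/y, 34373 in +EMD, 23704 in S54F, 33587 in Δ95–99 and 31704 in Q133H. At day 2 it was 576 in wildtype and 1589, 9208, 1686, 9487 and 6095 in the other lines. In each of these, 4 or 5 of the 5 genes were called higher, beside 4.54% to 17.2% of all genes. At day 1 the sum was highest in +EMD, where none of the 10 genes was called higher. Their median log2 ratio there was 0.49 and the highest was 0.98, just inside the limit. At day 2 the sum was highest in Δ95–99, +EMD and Q133H, the lines with genes of the 10 called higher. Whether the sum and the 10 genes go together was not tested.

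The summed level of 5 genes of differentiated muscle (Myh3, Ckm, Tnnt3, Mymk, Acta1) was lowest in Q133H and then Δ95–99 at day 1 and day 2. At day 1 it was 166707 in wildtype, 160426 in EMD-/y, 49662 in +EMD, 96394 in S54F, 14056 in Δ95–99 and 8637 in Q133H. At day 2 it was 624815, 595056, 391760, 534315, 268466 and 84402. All 5 genes were called lower in Δ95–99 and Q133H on both days and in +EMD at day 1, beside 8.17% to 14.7% of all genes. The myogenic markers (Myod1, Myf5, Des, Cdh15, Pax7, Myog) had 5 of 6 lower in Q133H at day 1, beside 14.4%. Heat-shock genes (Hspa1a, Hspa1b, Hsph1, Dnajb1, Hspa8) summed to 30812 to 46938 in wildtype and to 51387 to 85268 in the other lines, and Hspa8 alone made up 79.2% to 95.4% of the sum. Hspa1a and Hspa1b lay on both sides of wildtype, as Hspa1a did with log2 ratios of -0.82 in +EMD at day 2 and 1.54 in Q133H at day 1. Dnajb1 was above wildtype in every comparison, and Hsph1 in all but Q133H at day 2. In Q133H 3 of the 5 heat-shock genes were higher at day 1 and at day 2, beside 8.90% and 17.2% of all genes.

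The mRNAs of the kinase chain were called, in either direction, about as often as all genes or less often. Of 21 genes of the chain and its adaptors and kinase substrates (Grb2, Sos1, Braf, Map2k1, Rps6ka1 and others), 0 were called higher and 2 lower in Q133H at day 1, against 8.90% and 14.4% of all genes, and 1 higher and 3 lower in Δ95–99, against 8.33% and 11.8%. The list's median log2 ratio was -0.07 and -0.19 there, and between -0.34 and 0.11 over all 15 comparisons. At day 2, 2 were higher and 4 lower in Q133H, against 17.2% and 14.7%. None was called in EMD-/y on any day.

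Among 12 receptor tyrosine kinases, 5 were lower and 0 higher than wildtype in Q133H at day 1, and 4 were higher and 4 lower at day 2. For this list and the next 3, the shares of all genes in Q133H were 8.90% higher and 14.4% lower at day 1 and 17.2% higher and 14.7% lower at day 2, and with so few genes a count of 1 to 4 can lie near them. Fgfr3, a receptor for fibroblast growth factors, had day 2 levels of 134.5 in wildtype, 95.1 in EMD-/y, 60.1 in +EMD, 47.5 in S54F, 39.1 in Δ95–99 and 25.5 in Q133H. It was called lower in all but EMD-/y.

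Of 14 ligands, 11 passed the filter. In Q133H 4 were higher and 4 lower at day 1, and 4 were higher and 3 lower at day 2. Pdgfb, a ligand of the platelet-derived growth factor receptors, had day 0 levels of 564.5 in wildtype, 454.1 in EMD-/y, 101.2 in +EMD, 238.3 in S54F, 61.9 in Δ95–99 and 45.2 in Q133H. Hbegf, a ligand of the EGF receptor, was lower at day 2 in all but EMD-/y, by log2 ratios from -1.09 in Q133H to -2.05 in +EMD. Fgf21 was lower at day 1 in the same 4 lines, down to -4.68 in Q133H, where its level was 2.4. Igf1 was higher at day 2 in all but Q133H, up to 2.09 in +EMD. None of these 4 ligands was called in the same direction in all 5 lines.

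Of 17 other negative regulators, 16 passed the filter, and 1 was higher and 2 lower in Q133H at day 1, with a median log2 ratio of 0.23. Dusp9, another ERK phosphatase, had day 0 levels of 128.2 in wildtype, 346.1 in EMD-/y, 356.0 in +EMD, 418.2 in S54F, 243.6 in Δ95–99 and 346.7 in Q133H, and was called higher in all but Δ95–99. At day 1 it was called higher in all but EMD-/y, by log2 2.80 in Q133H. Dusp8, which acts mainly on JNK and p38, rose from day 1 to day 2 in all 6 lines, by log2 1.54 to 2.40.

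Among 20 other immediate-early and ETS genes, 4 were higher and 3 lower in Q133H at day 1, with a median log2 ratio of -0.17. Atf3, a stress-induced factor of the ATF family, rose from day 1 to day 2 in all 6 lines, by log2 1.14 to 1.89. Its day 2 levels were 63.6 in wildtype and 260.6 in Q133H.

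The 8 other genes often read as ERK outputs (Phlda1, Ccnd1, Epha2, Epha4, Plaur, Plau, Il1rl1, Tnfrsf12a) had no call lower than wildtype at day 1 or day 2 in any line, while at day 0 Il1rl1 and Plau were lower in +EMD, with log2 ratios of -3.58 and -1.37. In Q133H 4 were higher at day 1, against 8.90% of all genes, and 7 at day 2, against 17.2%. None was lower in Q133H on these days, and the median log2 ratio at day 2 was 2.02 against 0.00 over all genes. In Δ95–99 and in +EMD 4 were higher at day 2, against 13.0% and 10.2%. In S54F 2 were higher at day 2, against 5.66%, and in EMD-/y 0, against 4.54%. Il1rl1, the receptor for interleukin 33, had day 2 levels of 61.9 in wildtype, 95.1 in EMD-/y, 285.1 in +EMD, 144.7 in S54F, 432.1 in Δ95–99 and 1304 in Q133H. Plaur, the urokinase receptor, fell from day 0 to day 1 in all 6 lines, by 2.72 on the log2 scale in wildtype and by 1.14 in Q133H.

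The genes with the courses most like those of the 10 were sought among 12323 other named genes, by Pearson r of log2 levels over the 18 groups. For Etv4 they were Rasa2 (0.985), a GTPase-activating protein of Ras, and Ago1 (0.981). For Fosl1 they were Rbm7 (0.984) and Reep4 (0.984), for Dusp5 Cldn12 (0.974) and Zfp36l2 (0.971), and for Dusp4 Twist2 (0.969) and Sdc4 (0.963). Dusp6 was most like Phc2 (0.969) and Pkd2 (0.968), and Etv5 most like Tprn (0.969) and Bola1 (0.960). The closest courses were looser for the 4 genes that had stood apart: Ikzf2 (0.908) and Sp100 (0.906) for Dusp1, Rnf111 (0.834) and Slc35e2 (0.834) for Spry4, Me1 (0.831) and Angptl2 (0.824) for Spry2, and Gata4 (0.803) and Klf12 (0.786) for Egr1.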

How the data were processed

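RNA sequencing had been done on poly-A RNA with paired-end reads of 100 bases, and strand was not stated to be kept. Per the labels and the methods, the authors filtered reads with SOAPnuke, mapped them to mm10 with HISAT2 and compared groups with DESeq2; versions are not given in the sources used here. The deposited tables, 15 of a line against wildtype and 12 between days, hold for each gene 2 group values (a signal in DESeq2 normalised counts), besides the authors' own fold changes, p-values, adjusted p-values and calls, which were not used. The mean of both group values behaved as the mean over 6 libraries, and a gene with a single read still had values above 0 in both groups (log2 ratio up to 0.439), so the mean appears to have been divided between the groups by a shrunken fold. Reads of single libraries could not be recovered, and the planned limma fit with adjusted p-values was therefore replaced by log2 ratios within a table (1 added to each value), a filter at a mean of at least 10 normalised counts and a limit of 2-fold, with no test. The rule on group values was run on data simulated with counting noise only and with changes set well past 2-fold. These data had no spread between cultures and no shrunken fold, so they cannot show how the rule does with either. Counting errors took 3 times the group value as its reads and cover counting only.

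Gene numbers were paired with symbols from RefSeq (17824 of 19653 matched). The 10 genes, the pathway lists and the markers were chosen with earlier results of these data known. A list gene was named where it was called in 1 direction in 4 or 5 lines on a day, or in all 6 lines in a step, with at most 3 per list and direction. Alternatives were other pseudocounts, no filter, other fold limits and, added after the data were seen, scaling to column sums and a second route to the changes between days. Python 3 with pandas and numpy was used.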

Additional observations from a re-analysis of the deposited data

How the results depend on the processing

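Calls among the 10 genes kept, in each of the 4 sets of comparisons, within 1.5 times of their number with a pseudocount of 5 or 0.5, without the filter, and with each group scaled to its column sum. Against wildtype the 30 calls became 66 at 1.5-fold, beside 28.4% of all genes, and 12 of 150 at 3-fold, beside 7.94%. Pooled over all lines and days, no excess of the 10 genes over the background thus remained at 3-fold. Most ratios past 3-fold were in Q133H. They included Dusp4, Dusp5, Etv4, Etv5 and Fosl1 at day 1 and Dusp4, Dusp5, Etv4 and Fosl1 at day 2. The share of all genes at 3-fold in Q133H alone was not computed. From day 0 to day 1 the 19 calls became 7 of 60 at 3-fold, beside 7.35% of all genes. From day 1 to day 2 the 18 calls became 32 of 60 at 1.5-fold, beside 34.8%, and 9 at 3-fold, beside 6.62%. For changes between days set against wildtype the 16 calls became 40 and 4 of 100 at the same limits, beside 25.1% and 4.62% of all genes. The alternative limits are wider or narrower by construction. Column-sum scaling, chosen after seeing the data like the second route to the changes between days, moved the median log2 ratio of all genes by -0.27 to 0.25, and by over 0.1 in 9 of 27 tables. It gave 35, 19, 23 and 23 calls in the same order (8 higher in place of 5 for Q133H at day 2, Dusp4 higher in +EMD at day 1, Etv4 lower in S54F at day 2, and in the step to day 2, 5 lower in place of 3 in EMD-/y and 7 in place of 5 in S54F). The shares of all genes were then 15.5%, 16.6%, 18.6% and 11.5%. Of 370 ratios of the 10 genes, 85 moved beyond their counting interval. No called ratio changed sign, and 8 uncalled ratios in the 27 tables did. In 7 of the 27 tables it moved the share of all calls that were higher by over 10 percentage points: from 53.9% to 65.2% for Q133H and 61.5% to 71.8% for Δ95–99 against wildtype at day 2, and in the step to day 2 from 38.2% to 25.8% in wildtype, 39.0% to 22.1% in EMD-/y, 51.9% to 33.7% in +EMD, 43.5% to 25.3% in S54F and 63.5% to 50.9% in Δ95–99.

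No paired analysis was possible because the tables hold group values and carry no replicate numbers. For the same reason leaving out a replicate, limma, voom weights, fits of only the compared groups, size factors against total counts per library and thresholds on adjusted p were not run. Without replicate spread, a ratio beyond its counting interval is not shown to exceed the variation between cultures, and genes with few reads (Dusp5 and Etv4 at day 2) have the widest intervals.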
